A study of Mus musculus with 11 samples.

Results

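The 10 genes described here, Clec7a, Cst7, Itgax, Spp1, Lpl, Trem2, Tyrobp, Axl, Cd68 and Gpnmb, belong to the set that microglia raise when they take on the disease-associated state. They were taken by symbol from a count table of 22609 genes, and all 10 were found and passed the filter of at least 10 reads over the 11 libraries, as did 17557 genes in all. In brief, Clec7a rose 3.12-fold by the main test in the AnkGKO libraries, labelled as cerebellar hemisphere, a call lost in 7 of 13 alternatives. Itgax and Cst7 stood 5.41-fold and 5.02-fold higher there without passing that test, and no member passed it in NFKO or DKO.

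Bulk poly(A) RNA had been sequenced from tissue labelled as cerebellar hemisphere, taken from untreated littermate mice of mixed sex. NFKO mice carried Pcp2-Cre with floxed Nfasc on both alleles (NfascFx/Fx, 3 libraries). AnkGKO mice carried Pcp2-Cre with both alleles of Ank3, which encodes ankyrin G, floxed (AnkGFx/Fx, 2 libraries), and DKO mice carried Pcp2-Cre with both genes floxed (3 libraries). The 3 controls were floxed at both genes without Cre, as the series' design gives it. The paper's methods allow 1 or both genes to be floxed in these controls, and its results text writes the control with Pcp2-Cre. Pcp2-Cre is a driver known for Purkinje cells, the neurons in which the study set out to delete the floxed genes. The age was given as postnatal day 30 in one label and 32 in another, and the background as C57BL/6J or as mixed with 129 (129/SvEv in the paper's methods). All libraries were labelled as 1 batch and as biological replicates, without saying whether a library held 1 mouse.

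Microglia are the resident macrophages of the brain. In the resting, or homeostatic, state they express genes such as P2ry12, Tmem119 and Cx3cr1. Near dying cells, damaged myelin or protein deposits they lower part of that program and raise another one, named for disease-associated microglia (DAM), which serves lipid uptake, lysosomal digestion and phagocytosis. The receptor TREM2 and its signalling adaptor TYROBP (DAP12) are needed for the full program, whose later genes include Clec7a, Itgax, Cst7, Spp1, Lpl, Axl and Gpnmb. In the cerebellum, loss of Purkinje cells is a known setting for this state. Several members are also made by other cells: Spp1 by motor and other large neurons, Axl by astrocytes and vascular cells, Lpl by neurons and fat or muscle cells, and Gpnmb by pigment cells.

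The stretches of DNA upstream of 4 members are shown because these genes give the contrast in the data: Clec7a, Itgax and Cst7 were the members furthest above control in AnkGKO, and Trem2, the receptor that the program depends on, was not. Each stretch is the last 150 bases before the annotated start of the gene (the more upstream of the GENCODE start and the start in the gene's first row of the RefSeq table), 5′ to 3′ along the gene, in lower case. Capitals mark a purine-rich box (GAGGAA or its reverse complement TTCCTC, the core of sites bound by the macrophage factor PU.1) or an AP-1 site (TGANTCA). The sequences were read from the RefSeq promoter table, whose build is GRCm38.p6, and placed by exact match on GRCm39 at chr6:129449743-129449892, minus strand, chr7:127728518-127728667, plus strand, chr2:150412134-150412283, plus strand, and chr17:48653279-48653428, plus strand.
Clec7a: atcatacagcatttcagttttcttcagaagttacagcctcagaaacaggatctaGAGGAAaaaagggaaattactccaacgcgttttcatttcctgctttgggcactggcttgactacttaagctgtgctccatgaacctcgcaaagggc
Itgax: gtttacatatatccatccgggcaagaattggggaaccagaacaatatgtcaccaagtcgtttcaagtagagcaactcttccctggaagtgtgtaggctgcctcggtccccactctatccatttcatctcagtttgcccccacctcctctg
Cst7: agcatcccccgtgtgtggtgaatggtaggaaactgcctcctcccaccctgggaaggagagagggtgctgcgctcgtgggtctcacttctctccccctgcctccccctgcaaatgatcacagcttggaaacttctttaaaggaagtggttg
Trem2: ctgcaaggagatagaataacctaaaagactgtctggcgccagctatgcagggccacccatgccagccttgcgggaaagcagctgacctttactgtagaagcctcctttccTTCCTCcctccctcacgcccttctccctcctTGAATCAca
The whole 250 bases before that RefSeq start were searched on both strands for 8 of the 10 members, and Tyrobp and Lpl were not searched. A purine-rich box was found in 5 of the 8 (Trem2, Clec7a, Axl, Spp1 and Cd68), against 23.3% of 32851 promoters of the same length. An AP-1 site was found in 3 of the 8 (Trem2, Itgax and Cd68) against 6.75% of promoters. For Itgax it began in the last bases of the stretch shown and ended beyond it, so it is not marked there. The E-box CACGTG was found in none of the 8 and in 6.02% of promoters. No 2 of these searched motifs overlapped in the stretches shown, and a match of letters is a description of the sequence only.

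Gene counts summed to totals between 38890851 and 55822361 reads a library. The libraries held little RNA of the labelled tissue's defining neurons: Pcp2 of Purkinje cells stood at 26.3 and 28.3 CPM (counts-per-million, scaled by edgeR's TMM factors) in control 1 and NFKO 1 but between 0.0929 and 2.14 CPM elsewhere, and Gabra6 of granule cells stood at 84.2 and 59.0 CPM in those libraries and at or below 4.41 CPM in the other 9. Hoxc8, a patterning gene of the spinal cord, was read at between 7.99 and 159 CPM in all 11. Ank3 stood at 353 to 407 CPM in control and NFKO and at 156 to 200 CPM in AnkGKO and DKO, a gap also seen against control 2 and control 3 (375 and 353 CPM), which held little Pcp2. Nfasc, which other cells also express, stood at 661 to 718 CPM in control, 622 to 701 CPM in NFKO, 717 and 953 CPM in AnkGKO and 559 to 606 CPM in DKO. The DKO libraries were thus below every other library, while NFKO overlapped control. NFKO 2 held the highest sums of meningeal fibroblast and skeletal muscle markers (1518 and 309 CPM), and DKO 2 by those of monocytes and neutrophils (93.1 CPM). Xist, which marks female tissue, was at or below 1.39 CPM in control 3, every NFKO and both AnkGKO libraries, at 28.4 CPM in DKO 1 and at 459 CPM or more in the other 4, so sex and genotype were partly confounded.

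Counted per kilobase of annotated exon, which allows levels to be compared between genes, the members spanned a wide range. Spp1 (osteopontin, a secreted phosphoprotein) was highest, with group means of 48.5 to 67.3 CPM per kilobase, followed by Tyrobp at 22.3 to 30.1 and Axl at 11.04 to 14.0. Cd68 (3.49 to 5.66), Trem2 (2.06 to 2.77), Clec7a (0.700 to 2.20), Lpl (0.906 to 1.28) and Gpnmb (0.568 to 1.10) followed. Itgax (0.105 to 0.564) and Cst7 (0.0869 to 0.584) were the lowest, resting on 9 to 154 and 3 to 49 reads a library. Of the 10 members, 7 had their highest group mean in AnkGKO, 2 (Trem2 and Spp1) in DKO and 1 (Gpnmb) in control. The AnkGKO 1 library was the highest of all 11 for 5 members and control 3 the lowest for 4.

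**Figure D1:**
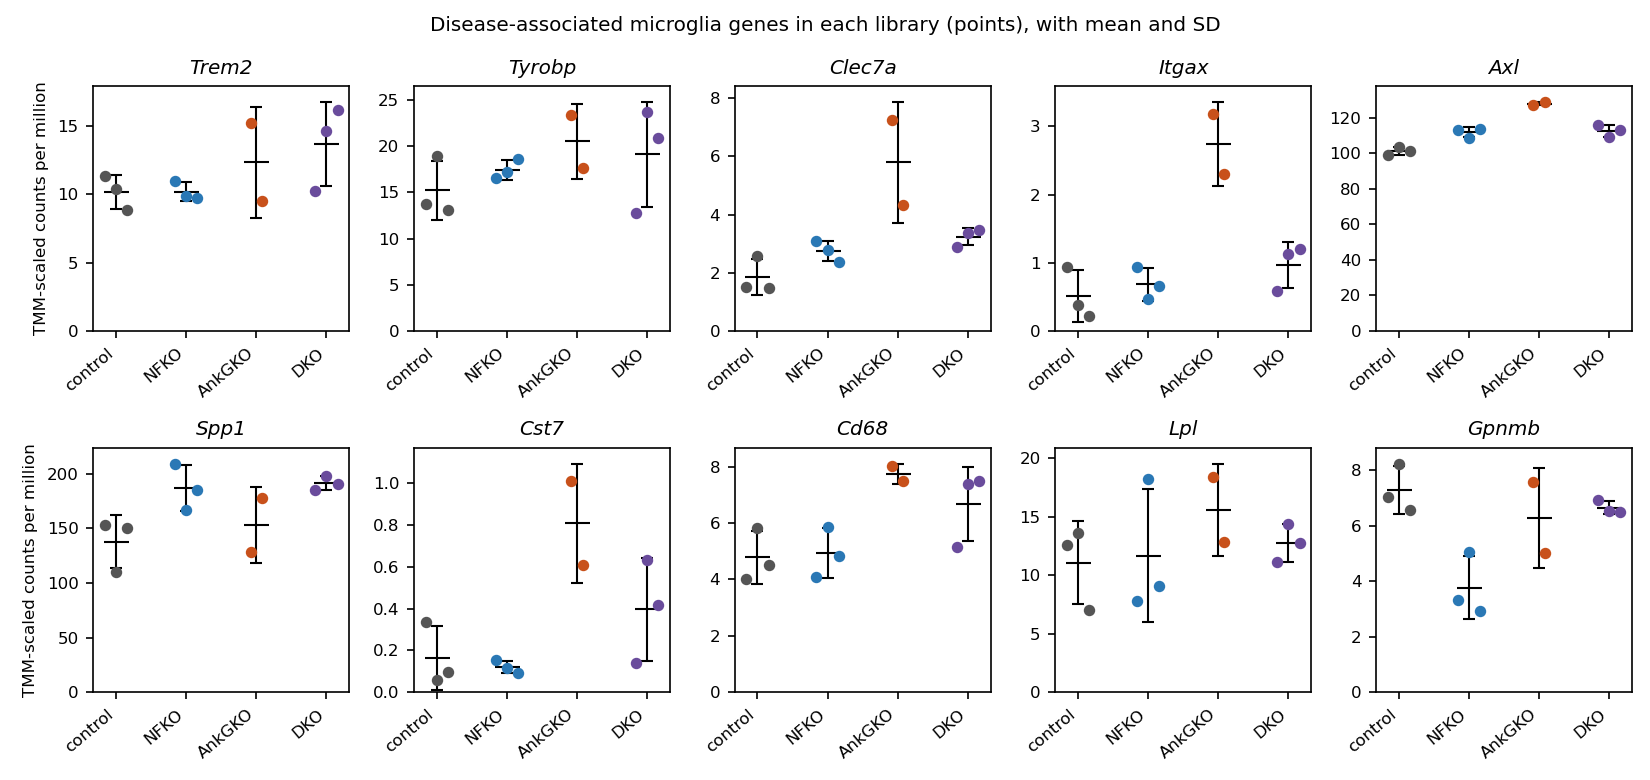
Level of each of the 10 genes in every library, in TMM-scaled CPM (vertical axis, from 0), by genotype (horizontal axis); points are libraries and the black marks give the mean and SD. Both AnkGKO libraries of Clec7a, Itgax, Axl, Cst7 and Cd68 lie above all 3 controls, and the 3 NFKO libraries of Gpnmb lie below them.

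Clec7a encodes dectin-1, a receptor for fungal and other glucans that becomes abundant on activated microglia. The gene lies at chr6:129438554-129449742 on the minus strand (GRCm39). It stood at 1.51, 2.56 and 1.48 CPM in the controls, at 3.08, 2.79 and 2.38 CPM in NFKO, at 7.26 and 4.32 CPM in AnkGKO and at 2.89, 3.36 and 3.46 CPM in DKO. Both AnkGKO libraries were above every other library, every DKO library was above every control, and NFKO overlapped control by 1 library. In AnkGKO the log2 fold change against control was 1.64 ± 0.27 (SE), the only call among the members (edgeR quasi-likelihood test over all 17557 genes, adjusted p = 0.0341). The call was lost without control 1 (log2 fold change 1.52, adjusted p = 0.196), without control 3 (1.504, adjusted p = 0.163), without AnkGKO 1 (1.22, adjusted p = 0.374), with only control and AnkGKO libraries in the edgeR fit (adjusted p = 0.212) and with Xist as a covariate (1.96, adjusted p = 0.140). DKO was higher than control by 0.80 ± 0.25 and NFKO by 0.57 ± 0.25, neither past the edgeR threshold (adjusted p = 0.576 and 0.629). In bulk RNA, more cells of a type and more RNA per cell cannot be told apart, here or for any member.

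Itgax encodes CD11c, an integrin chain found on dendritic cells and on activated microglia, and lies at chr7:127728668-127749829 on the plus strand. Its levels were 0.936, 0.383 and 0.214 CPM in control, 0.937, 0.462 and 0.651 CPM in NFKO, 3.18 and 2.30 CPM in AnkGKO and 0.583, 1.12 and 1.201 CPM in DKO. The AnkGKO libraries stood far above the other 9, while control, NFKO and DKO overlapped. The log2 fold change in AnkGKO was 2.43 ± 0.51, which missed the edgeR threshold (adjusted p = 0.124) and passed it with DESeq2 (adjusted p = 3.66e-04) and, in edgeR, without control 1 (3.17, adjusted p = 0.0275). The log2 difference of DKO from control was 0.94 ± 0.48 (0.58 to 1.68 when 1 library was left out) and that of NFKO 0.43 ± 0.49 (0.071 to 1.17). Of the 50-base words of the Itgax transcripts, 7.71% also occur in other genes, most of them in its neighbour Itgad. Reads that fit both genes could have been left out of the count or placed in either gene.

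Trem2, the lipid-sensing receptor of microglia, showed no such gap. Its levels were 11.3, 10.3 and 8.86 CPM in control, 10.98, 9.86 and 9.70 CPM in NFKO, 15.2 and 9.47 CPM in AnkGKO, and 10.3, 14.6 and 16.2 CPM in DKO. All 3 mutant groups overlapped control, and the highest libraries were AnkGKO 1, DKO 2 and DKO 3. The log2 fold changes were 0.00 ± 0.19 in NFKO, 0.28 ± 0.22 in AnkGKO and 0.43 ± 0.19 in DKO (edgeR adjusted p = 0.639 for DKO). An antisense RNA, Gm65654, covers 8.75% of the exon length of Trem2, and the strand setting of the counting is not given in the sources used here.

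Tyrobp, the adaptor that carries the TREM2 signal, ranged from 13.04 to 18.9 CPM in control, 16.5 to 18.7 CPM in NFKO, 17.7 to 23.4 CPM in AnkGKO and 12.8 to 23.7 CPM in DKO. All groups overlapped, and DKO held both the highest and the lowest library. The log2 fold changes were 0.19 ± 0.22, 0.43 ± 0.24 and 0.33 ± 0.22 in NFKO, AnkGKO and DKO, and their 95% intervals all included 0. Leaving out 1 library moved them over 0.093 to 0.38, 0.21 to 0.62 and 0.14 to 0.55.

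Axl, a receptor tyrosine kinase that binds the bridging protein GAS6 on dying cells, varied little between replicates. The controls read 99.1, 103 and 102 CPM, NFKO 113, 109 and 114 CPM, AnkGKO 127 and 129 CPM and DKO 116, 109 and 113 CPM. Every mutant library of each genotype was above every control. The differences were small: 0.14 ± 0.05 in NFKO, 0.34 ± 0.06 in AnkGKO and 0.15 ± 0.05 in DKO on the log2 scale. The AnkGKO difference had an edgeR adjusted p of 0.0426 but stayed under the fold threshold of 0.6, and the other adjusted p-values were 0.498 and 0.588. Among the gene lists, astrocyte markers (astrocytes also make Axl) summed to 3703 to 4250 CPM in control, 3573 to 4260 CPM in NFKO, 4936 to 5580 CPM in AnkGKO and 4293 to 5340 CPM in DKO, all 6 detected. In AnkGKO 5 of the 6 were higher than control and 1 lower, and Gfap had the largest means (1887 CPM in control and 2793 CPM in AnkGKO). Pearson's r between log2 CPM of Axl and that sum was 0.54 over the 11 libraries and -0.37 once each genotype's mean was removed. The part of astrocytes in the Axl difference was not tested.

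**Figure D2:**
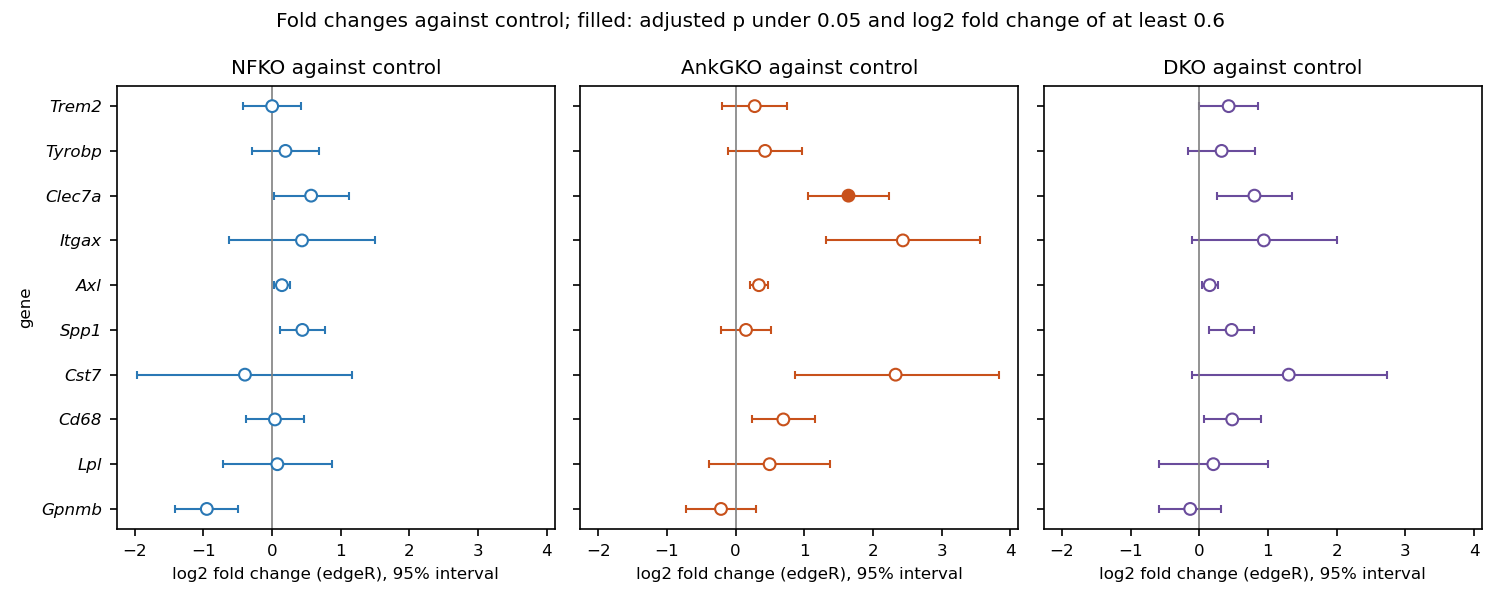
Log2 fold change of each gene against control (horizontal axis) with its 95% interval from edgeR, in NFKO, AnkGKO and DKO; a filled point marks an adjusted p under 0.05 with a fold change past the threshold. The only filled point is Clec7a in AnkGKO at 1.64, and Gpnmb lies at -0.95 in NFKO.

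Among the secreted members, Cst7, which encodes cystatin F, an inhibitor of lysosomal cathepsins, was close to the limit of detection (chr2:150412284-150420864, plus strand). It was counted at 13, 3 and 4 reads in control, 8, 6 and 5 in NFKO, 49 and 28 in AnkGKO and 6, 27 and 23 in DKO. As CPM these were 0.338, 0.0604 and 0.0952 in control, 0.153, 0.116 and 0.0929 in NFKO, 1.01 and 0.608 in AnkGKO and 0.140, 0.630 and 0.419 in DKO, where 3 reads amount to 0.0537 to 0.0771 CPM. The AnkGKO libraries were above all controls and NFKO libraries, and DKO was split, with DKO 1 at the level of the controls. The log2 fold change of AnkGKO was 2.33 ± 0.68 (edgeR adjusted p = 0.420) and that of DKO 1.30 ± 0.65 (adjusted p = 0.646), and neither was past the threshold. Leaving out 1 library moved the first from 1.91 (without control 2) to 3.36 (without control 1) and the second from 0.84 (without DKO 2) to 2.33 (without control 1). The log2 difference of NFKO from control was -0.40 ± 0.72.

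Spp1 stood at 153, 109.8 and 151 CPM in control, 209, 167 and 185 CPM in NFKO, 128 and 178 CPM in AnkGKO and 185, 198 and 191 CPM in DKO. All NFKO and DKO libraries were above all controls, while 1 AnkGKO library lay inside the control range and the other above it. The log2 fold changes were 0.44 ± 0.15 in NFKO and 0.47 ± 0.15 in DKO (edgeR adjusted p = 0.448 and 0.588) and 0.15 ± 0.16 in AnkGKO. Of the transcript's 50-base words 6.77% are shared, mostly with the experimentally untested same-strand model Gm42793, which overlaps it.

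Motor neurons are another source of Spp1, and their markers were therefore summed as well. The summed CPM of 7 cholinergic motor neuron markers, all detected in every group, ranged from 219 to 392 in control, 246 to 474 in NFKO, 272 to 596 in AnkGKO and 501 to 624 in DKO. Across the 11 libraries, which share genotype, Pearson's r between log2 CPM of Spp1 and that sum was 0.75, and 0.96 once each genotype's mean was removed. Against the 13 markers of all microglia and macrophages the same values were 0.11 and -0.62. For the other lists the value within genotypes lay between -0.70 (meningeal fibroblasts) and 0.69 (oligodendrocytes). Uts2 (urotensin 2), the motor neuron marker past the threshold, rose in DKO by 2.60 ± 0.27 (edgeR adjusted p = 0.00818), a call that was lost without control 3 (adjusted p = 0.0911) and with only control and DKO libraries in the fit (adjusted p = 0.161). The part of neuronal RNA in the Spp1 difference was not tested.

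**Figure D3:**
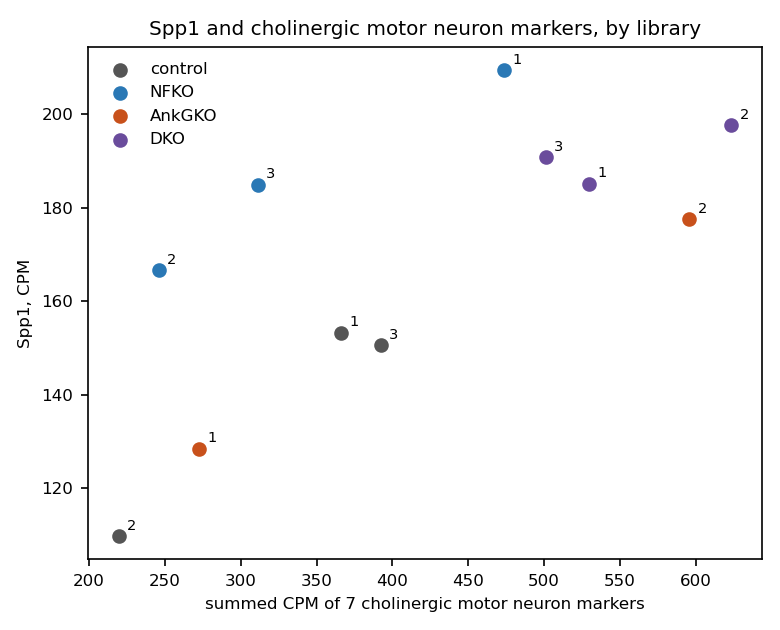
Spp1 in each library (vertical axis, CPM) against the summed CPM of 7 cholinergic motor neuron markers (horizontal axis); colours are genotypes and numbers are replicates. In control, NFKO and AnkGKO the library with the lowest sum has the lowest Spp1, which is not so in DKO, and the 3 DKO libraries lie between 501 and 624 CPM of markers.

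Of the members that act inside the cell or on lipids, Cd68, the lysosomal membrane protein macrosialin, read 4.03, 5.82 and 4.50 CPM in control, 4.09, 5.86 and 4.83 CPM in NFKO, 8.01 and 7.49 CPM in AnkGKO, and 5.16, 7.38 and 7.498 CPM in DKO. AnkGKO was above control and NFKO without overlap, as were DKO 2 and DKO 3, while DKO 1 lay inside the control range. Its log2 fold changes were 0.69 ± 0.21 in AnkGKO and 0.48 ± 0.19 in DKO (edgeR adjusted p = 0.483 and 0.619) and 0.04 ± 0.19 in NFKO.

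Lpl, lipoprotein lipase, varied widely between replicates. It ranged from 7.05 to 13.6 CPM in control, 7.79 to 18.2 CPM in NFKO, 12.8 to 18.4 CPM in AnkGKO and 11.2 to 14.4 CPM in DKO. The highest NFKO value was in NFKO 2, the library rich in muscle and meningeal RNA, and without it the log2 difference of NFKO from control changed from 0.08 to -0.40. The differences of AnkGKO (0.49 ± 0.39) and DKO (0.21 ± 0.35) had intervals that included 0. Markers of adipocytes, which also express Lpl, summed to 29.9 CPM in DKO 2, the DKO library with the highest Lpl, and to 0.217 to 2.93 CPM in the other 10, and their part was not tested.

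Gpnmb, a glycoprotein of late endosomes and lysosomes, is encoded at chr6:49013426-49047863 on the plus strand. It was the only member with a mean below control in every mutant genotype, while Cst7 was below control in NFKO only. Its levels were 7.02, 8.23 and 6.57 CPM in control, 3.33, 5.05 and 2.92 CPM in NFKO, 7.55 and 4.996 CPM in AnkGKO, and 6.93, 6.52 and 6.50 CPM in DKO. All 3 NFKO libraries were below every control and every DKO library, and AnkGKO 2 lay just under the highest NFKO library. The log2 difference of NFKO from control was -0.95 ± 0.21, which missed the edgeR threshold (adjusted p = 0.0942) and passed with DESeq2 (adjusted p = 0.00102) and, in edgeR, without NFKO 2 (-1.22, adjusted p = 0.0215). DKO differed from control by -0.13 ± 0.21. Summed markers of melanocytes, another source of Gpnmb, stayed between 1.28 and 2.80 CPM in all 11 libraries.

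**Figure D4:**
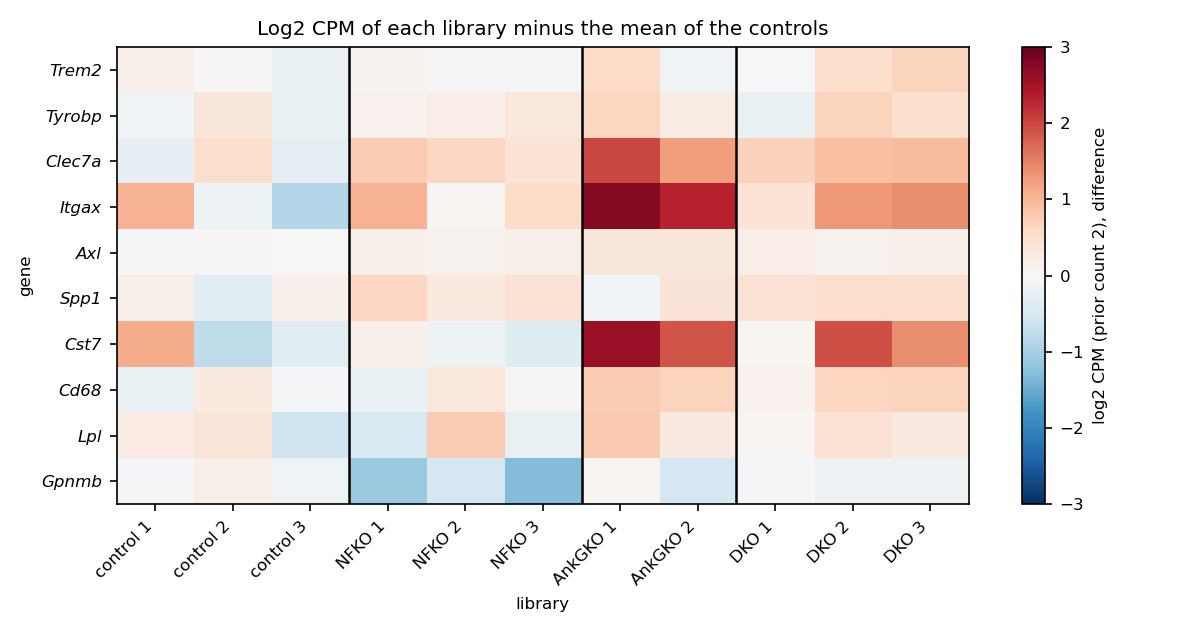
Log2 CPM (prior count 2) of each gene (rows) in each library (columns) minus the mean of the 3 controls, red higher and blue lower; black lines separate the genotypes. The largest differences are Itgax at 2.76 and 2.31 and Cst7 at 2.59 and 1.90 in AnkGKO 1 and 2, and DKO 2 and DKO 3 are higher than DKO 1 for Itgax, Cst7 and Cd68.

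Counted together, 9 of 10 members were higher than control in AnkGKO, 9 in DKO and 8 in NFKO, with median log2 fold changes of 0.46, 0.45 and 0.11 (0.33 to 0.68, 0.34 to 0.57 and 0.034 to 0.23 when 1 library was left out, and 0.44 in NFKO and 0.85 in AnkGKO with Xist as a covariate), where the medians over all genes tested were between -0.01 and 0.00 and 48.7%, 49.8% and 48.2% of genes were higher. These 3 comparisons share the same controls, and control 3 was the lowest library for 4 members. In AnkGKO 1 member was called by edgeR, against 0.165% of the genes tested, and 2 (Clec7a and Axl) with the fold threshold removed, against 0.205%. In NFKO none was called, against a background of 0.365%, 4 had an unadjusted edgeR p under 0.05 (background 7.69%) and DESeq2 called 1, Gpnmb (background 0.945%). In DKO none was called, against 0.0228%, while 5 had an unadjusted p under 0.05 (background 7.77%) and DESeq2 called 0 (background 0.284%). The corresponding count in AnkGKO was 5 (background 5.39%), with 2 DESeq2 calls (background 0.582%). Without overlap between libraries, 5 members were higher in AnkGKO (11.7% of all genes were) and 0 lower (12.3%), 3 were higher in DKO (7.65%) and 0 lower (6.80%), and 2 were higher in NFKO (7.42%) and 1 lower (6.51%).

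The double mutant was then set against each single mutant. Against NFKO all 10 members were higher in DKO (50.1% of all genes were), with a median log2 difference of 0.33 (0.24 to 0.47 when 1 library was left out). With Xist as a covariate the median was smaller, and Tyrobp, Clec7a, Itgax and Lpl were lower in DKO instead. None of the 10 members was called by edgeR in the main fit (0.615% of genes were). Of their unadjusted p-values 4 were under 0.05, for Gpnmb, Cst7, Cd68 and Trem2 (background 16.2%). Gpnmb stood 0.82 ± 0.21 higher in DKO (edgeR adjusted p = 0.107), the one member DESeq2 called (adjusted p = 0.00529, background 2.53%) and the one without overlap (9.32% of all genes were higher without overlap and 10% lower), and edgeR called it without NFKO 2 (1.09, adjusted p = 0.0366). Against AnkGKO 7 of 10 members were lower in DKO (50.7% of all genes were higher), with a median of -0.20 (-0.29 to -0.085 when 1 library was left out). With Xist as a covariate the median was larger in size. No member was called by edgeR (0.171% of genes were), and DESeq2 called 0 members against a background of 0.6%. The 3 members with an unadjusted p under 0.05 (background 8.48%) were Clec7a at -0.84 ± 0.27 (-0.42 without AnkGKO 1), Itgax at -1.49 ± 0.49 and Axl at -0.19 ± 0.06. These 3 were lower in DKO without overlap (11.3% of all genes were), and Spp1 was higher without overlap (12.4%), by 0.32 ± 0.17.

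Whether the double deletion equalled the sum of the single ones on the log2 scale was tested by the interaction of the knockouts, that is the DKO difference minus the NFKO and AnkGKO differences. No member was called by edgeR (background 0.530%), 4 had an unadjusted p under 0.05 (background 10.3%) and DESeq2 called 2, Clec7a and Gpnmb (background 1.89%). For Clec7a the DKO libraries differed from that sum by -1.41 ± 0.37 (edgeR adjusted p = 0.168, DESeq2 adjusted p = 0.0128). For Gpnmb the value was 1.03 ± 0.31 (edgeR adjusted p = 0.249, DESeq2 adjusted p = 0.0429). The intervals of Itgax (-3.45 to -0.42) and Axl (-0.50 to -0.16) excluded 0 before adjustment, and those of the other 6 members included it.

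Genes of microglia at large were examined for the same libraries. The 14 homeostatic genes summed to 451 to 551 CPM in control, 537 to 567 CPM in NFKO, 606 to 614 CPM in AnkGKO and 475 to 617 CPM in DKO, and the 13 genes of all microglia and macrophages to 292 to 391, 368 to 409, 373 to 427 and 327 to 441 CPM. Their median log2 fold changes in NFKO, AnkGKO and DKO were 0.15, 0.31 and 0.17 for the first list and 0.27, 0.32 and 0.35 for the second, with no edgeR call in either. DESeq2 called 1 gene of each list, both in NFKO (background 0.945%). The mean log2 CPM of the members minus that of the homeostatic genes was -1.63 ± 0.32 (SD, n = 3) in control, -1.62 ± 0.16 (n = 3) in NFKO, -0.99 ± 0.28 (n = 2) in AnkGKO and -1.21 ± 0.06 (n = 3) in DKO. AnkGKO and DKO libraries, from -1.27 to -0.80, overlapped control only through control 1 at -1.26. Fcrls, a microglial Fc receptor-like gene, read 17.6, 17.0 and 11.1 CPM in the controls but 3.10, 2.75 and 3.62 CPM in the NFKO libraries, 6.19 and 6.67 CPM in AnkGKO and 4.78, 19.6 and 13.1 CPM in DKO. Both AnkGKO libraries and DKO 1 were thus also below every control. The NFKO log2 difference was -2.27 ± 0.44 (edgeR adjusted p = 0.0942, DESeq2 adjusted p = 1.28e-04). Among the genes of all microglia, the cysteine protease gene Ctss stood 0.50 ± 0.13 higher in NFKO (edgeR adjusted p = 0.203) and the sialic acid receptor gene Cd33 0.58 ± 0.14 higher in DKO (adjusted p = 0.467).

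**Figure D5:**
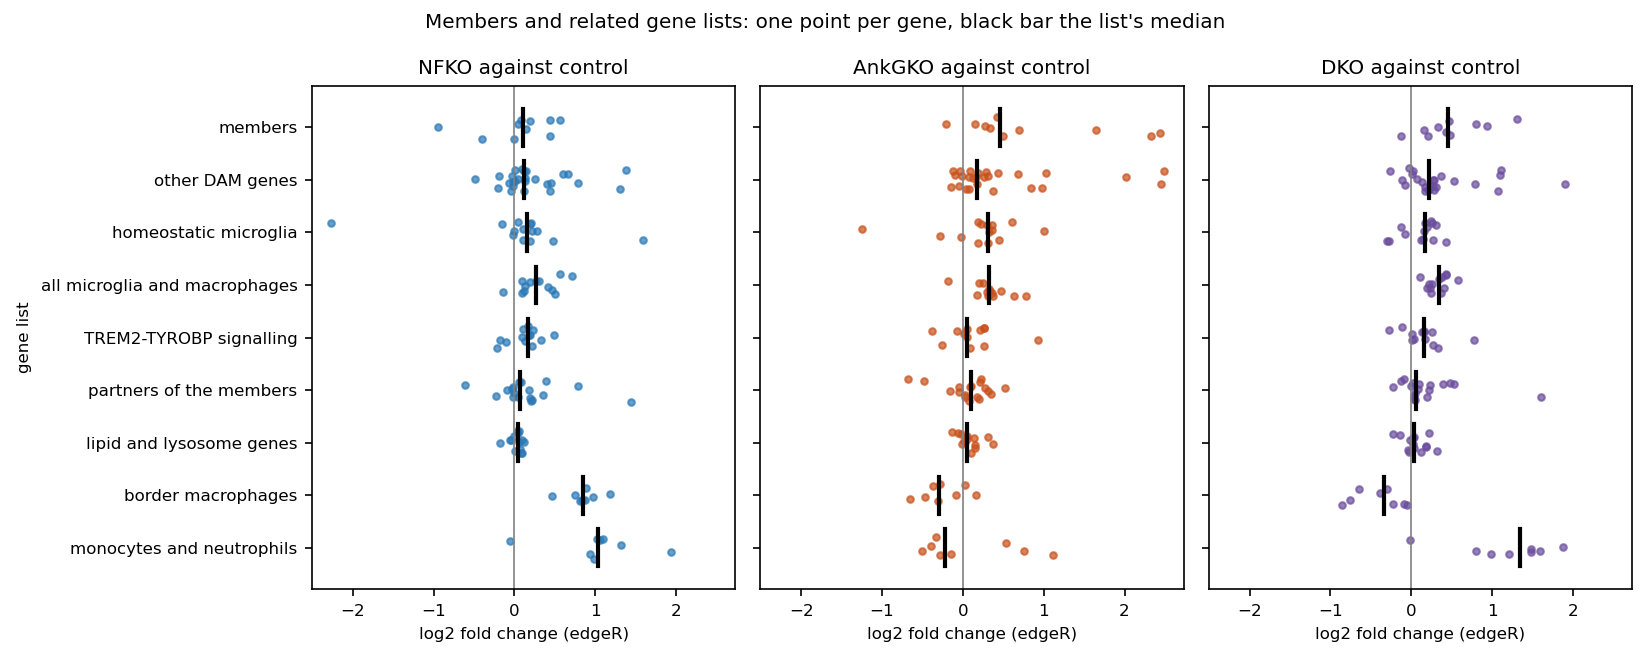
Log2 fold change against control (horizontal axis, edgeR) of every gene of the members and of 8 related lists (rows), in NFKO, AnkGKO and DKO; each point is a gene and the black bar is the list's median. The members' bar lies at 0.11, 0.46 and 0.45 and that of the other DAM genes at 0.12, 0.18 and 0.22. The bar of border macrophages lies at 0.85, -0.29 and -0.34, and that of monocytes and neutrophils at 1.04, -0.21 and 1.34.

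Another 26 genes of the DAM program were examined. Of these 18 were higher in NFKO, 20 in AnkGKO and 22 in DKO, with median log2 fold changes of 0.12, 0.18 and 0.22. By edgeR 0, 1 and 0 of them were called (background 0.365%, 0.165% and 0.0228%). At an unadjusted edgeR p under 0.05 there were 5 higher and 1 lower in NFKO, 8 higher in AnkGKO and 10 higher in DKO (background 7.69%, 5.39% and 7.77%). DESeq2 called 0, 2 and 0 (background 0.945%, 0.582% and 0.284%). Ccl3, a chemokine that attracts immune cells, was the one called: it stood at 0.3899, 0.221 and 0.238 CPM in control, 0.306, 0.289 and 0.316 CPM in NFKO, 1.88 and 1.22 CPM in AnkGKO and 0.420, 0.747 and 0.619 CPM in DKO. It rose in AnkGKO by 2.45 ± 0.36 (edgeR adjusted p = 0.0137), a call lost in edgeR without control 2 (adjusted p = 0.0834), without control 3 (adjusted p = 0.0941) or without AnkGKO 1 (adjusted p = 0.202). In all, 6 of 13 alternatives lost this call. Its relative Ccl4 stood at 0.104, 0.141 and 0.0714 CPM in the controls and 0.681 and 0.543 CPM in AnkGKO, 2.49 ± 0.53 higher (edgeR adjusted p = 0.118, DESeq2 adjusted p = 0.00717). Both chemokine genes were, like Clec7a, higher in every DKO library than in every control, with Ccl3 at 1.08 ± 0.34 and Ccl4 at 1.90 ± 0.50.

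Fabp5, a carrier of fatty acids, was the gene of that list past the threshold in the interaction. It stood at 32.8, 31.8 and 29.7 CPM in control, 42.0, 40.003 and 47.1 CPM in NFKO, 44.3 and 40.4 CPM in AnkGKO, and 28.1, 34.7 and 24.7 CPM in DKO. Every single mutant library was above every control and every DKO library, while DKO overlapped control. The interaction was -0.99 ± 0.17 (edgeR adjusted p = 0.0200), and it was lost without control 2 (adjusted p = 0.0501), control 3, AnkGKO 1 or DKO 1 (adjusted p = 0.0673, 0.112 and 0.0627).

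The signalling, partner and lysosomal genes around the members had no edgeR call in any comparison with control. Of 13 genes that signal downstream of TREM2, TYROBP and dectin-1 or shed TREM2, 10, 10 and 11 were higher in NFKO, AnkGKO and DKO, with medians of 0.17, 0.06 and 0.16 on the log2 scale. Blnk, a scaffold of that pathway, stood at 1.25, 1.69 and 1.14 CPM in the controls and 2.99 and 2.19 CPM in AnkGKO (0.93 ± 0.25, edgeR adjusted p = 0.369), and Vav1, an exchange factor for small GTPases, was 0.33 ± 0.14 higher in DKO (adjusted p = 0.622). The 18 partners of the members (ligands, co-receptors, and cathepsins that cystatin F inhibits or that process it) had medians of 0.07, 0.10 and 0.06. The cathepsin gene Ctsh was 0.78 ± 0.18 higher in NFKO (edgeR adjusted p = 0.136, DESeq2 adjusted p = 9.66e-04), and the legumain gene Lgmn 0.20 ± 0.06 higher in DKO (adjusted p = 0.576). The 14 lipid and lysosome genes had medians of 0.05, 0.05 and 0.03, with the progranulin gene Grn 0.37 ± 0.09 higher in AnkGKO (adjusted p = 0.310) and Lamp2, a lysosomal membrane gene, 0.19 ± 0.06 higher in DKO (adjusted p = 0.588). Across these 3 lists DESeq2 called 1 gene against control, Ctsh in NFKO (background 0.945%).

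Other cells that can carry member genes were counted as well. The 8 border macrophage markers, all detected, summed to 8.11 to 19.6 CPM in control, 18.2 to 29.97 CPM in NFKO, 7.86 to 16.8 CPM in AnkGKO and 4.60 to 15.0 CPM in DKO. Meningeal fibroblast markers were also higher in NFKO (145 to 429 CPM in control and 508 to 1518 CPM in NFKO), as did Schwann cell markers (175 to 341 and 496 to 560 CPM), each with all NFKO libraries above all controls, and their part in the NFKO differences was not tested. All 8 border macrophage genes were higher in NFKO, with Pf4 and Mrc1 at 1.18 ± 0.46 and 0.98 ± 0.46, and none was called by edgeR or DESeq2 against control. The 8 monocyte and neutrophil markers summed to 5.97 to 18.1, 15.8 to 32.9, 8.34 to 14.2 and 5.69 to 93.1 CPM in the same order, with Plac8 and Ccr2 at 1.93 ± 0.76 and 1.32 ± 0.52 in NFKO and no call. In AnkGKO, where Clec7a, Itgax and Cst7 were highest, both sums lay within or just below the control range. Without control 1 and NFKO 1, the libraries rich in granule cell RNA, AnkGKO still had 1 called member, but it was Itgax (3.18, edgeR adjusted p = 0.0329) in place of Clec7a (1.52, adjusted p = 0.239).

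The genes whose log2 CPM followed each member most closely over the 11 libraries, among 13901 genes of at least 1 CPM, are given as a description, since the libraries share genotypes and the choice was by the value itself. Tyrobp was followed by C1qb (Pearson's r = 0.96), Hpgds and Lat2, Clec7a by Mpeg1 (0.92), Blnk and Fcgr3, and Cd68 by Ccl6 (0.96), Mpeg1 and Slco2b1, most of which are known from microglia and macrophages. Axl was followed by Sox9 (0.94), a transcription factor of astrocytes, with Maoa and Odc1. Spp1 was followed by Rhot2 (0.93), Lgals1 and Calcb, and Gpnmb by Stk33 (0.96), Cul7 and Stag3, none of them on the microglial lists. For Itgax the closest were Ssr1 (0.87), Ctsd and Dbi, for Cst7 Nhlrc1 (0.87), Lag3 and Dbi, for Trem2 Lgi4 (0.86), Rcbtb2 and Nhlrc1, and for Lpl Unc45b (0.86), Star and Znrf1. Among the members, Itgax and Cst7 ran together with r = 0.89 (0.81 within genotypes), and Trem2 and Tyrobp with 0.70 (0.72 within). Clec7a and Itgax gave 0.80 over all libraries and 0.19 within genotypes.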

How the data were processed

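The authors deposited whole-number read counts per gene and a table of the same counts divided by size factors (a normalized signal, whose factors of 0.815 to 1.16 equalled DESeq2's median-ratio factors). The submitters' processing notes name FastQC 0.12.1, Trimmomatic 0.39, STAR 2.7.11a, R 4.3.2, DESeq2 1.40.2 and GRCm39. Per the methods, directional libraries were counted by gene within STAR, and the strand setting is not given in the sources used here. The count table ends with 5 summary lines named as htseq-count names them, which were left out: the no-feature and ambiguous reads were 14.3% to 15.7% of the reads assigned to genes and to these lines. The labels give single-end reads of 100 bases, the methods paired-end reads.

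Counts of genes with at least 10 reads over the 11 libraries (17557 of 22609) were fitted with edgeR 4.0.16 (R 4.3.3; TMM, robust quasi-likelihood, 1 coefficient per genotype over all libraries, adjustment by Benjamini-Hochberg over all genes). Calls were made at an adjusted p under 0.05 where the log2 fold change was also 0.6 or more in size. DESeq2 1.42.0 with a local dispersion fit was the main alternative. Levels are TMM-scaled CPM computed from the counts, SE and 95% intervals come from the edgeR fit, and intervals and the floor of 3 reads cover counting error or the spread of these libraries only. The tests were checked on simulated data. Shared 50-base words and exon lengths came from GENCODE vM39 on GRCm39.

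The members and lists were chosen with earlier results of these data known. Named besides the members were list genes past the threshold, the 2 of smallest p in each microglial list, and the 3 genes most like each member. Marker lists of other cells are given by sums, where they bear on a member. A gene that this rule names is not reported here. Deviations of libraries with the same replicate number correlated at 0.36, 0.31 and 0.17 between control and NFKO. Between NFKO and DKO these values were 0.050, 0.35 and 0.18, and each other pair of genotypes had a negative value. Replicates differed by more than sampling noise (chi-square per gene of at least 19.3).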

Additional observations from a re-analysis of the deposited data

Results flagged for a closer look

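Fabp5 is listed because its difference from control in the double mutant departed from the sum of its differences in the single mutants. The interaction was -0.99 ± 0.17 on the log2 scale (edgeR adjusted p = 0.0200, DESeq2 adjusted p = 7.06e-07), with differences from control of 0.45 ± 0.11 in NFKO, 0.43 ± 0.12 in AnkGKO and -0.11 ± 0.11 in DKO. All 5 single mutant libraries lay above all 3 DKO libraries. With Xist as a covariate the interaction was -1.21 (adjusted p = 0.337). None of the 10 members met this condition with edgeR, and groups of 3 or fewer libraries were not tested for outliers.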

How the results depend on the processing

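Under DESeq2 the members called numbered 1 in NFKO, 2 in AnkGKO, 1 in DKO against NFKO and 2 in the interaction. In AnkGKO the count was 0 with only the compared libraries, 0 with the replicate block, 0 with Xist as a covariate and 2 without a fold threshold. Leaving out a library gave 0 to 1 calls in AnkGKO (0 without control 3 or AnkGKO 1; without control 1 the call moved from Clec7a to Itgax), 0 to 1 in NFKO and 0 to 1 in DKO against NFKO, both 1 without NFKO 2. Xist as a covariate moved the members' median log2 fold change to 0.44 in NFKO, 0.85 in AnkGKO, 0.051 in DKO against NFKO, -0.54 in DKO against AnkGKO and -0.93 in the interaction. Directions reversed for Trem2 in NFKO (-5.8e-05 under DESeq2, -0.00012 with its size factors, -0.0013 under filterByExpr, -0.0018 unfiltered, -0.00043 with the replicate block). These values were near 0, and over all alternatives the range was -0.090 to 0.27. Directions also reversed for Cst7 in NFKO without the libraries rich in granule cell genes, an alternative chosen after seeing the data (0.43). With Xist as a covariate they reversed for Cst7 in NFKO (0.61), for Tyrobp, Clec7a, Itgax and Lpl in DKO against NFKO (-0.34, -0.14, -0.82, -0.57) and for Trem2 and Gpnmb in DKO against AnkGKO (-0.22, -0.040). The cause of these moves was not tested. Leaving out single libraries reversed, over these ranges, in NFKO Trem2 (-0.090 to 0.084), Cd68 (-0.10 to 0.21), Cst7 (-0.82 to 0.63) and Lpl (-0.40 to 0.30), in AnkGKO Trem2 (-0.10 to 0.58), Spp1 (-0.10 to 0.36) and Gpnmb (-0.54 to 0.054), in DKO Lpl (-0.035 to 0.38), in DKO against NFKO Axl (-0.0095 to 0.035), Spp1 (-0.044 to 0.12), Lpl (-0.093 to 0.60) and Tyrobp (-0.050 to 0.35), and in DKO against AnkGKO Trem2 (-0.16 to 0.53), Tyrobp (-0.30 to 0.12) and Gpnmb (-0.19 to 0.41). The replicate block took the Clec7a call in AnkGKO away (1.59, adjusted p = 0.133) and no other member's call. It also took those of Ccl3 in AnkGKO (adjusted p = 0.0728) and Fabp5 in the interaction (adjusted p = 0.0618). DESeq2's size factors, filterByExpr and no filter left each comparison's count of called members as it was. Reads limit Cst7 and Itgax most, and 2 AnkGKO libraries limit every comparison with that genotype.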
